A study of Mus musculus with 200 samples.

Results

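The 6 genes Tbata, Psmb11, Prss16, Ly75, Dll4 and Foxn1, which mark the thymic cortex or the thymus as a whole, were followed through 200 single cells sorted as medullary thymic epithelium. They were chosen by name and make up 6 of the 38406 genes in the count table. The cells came from female B6xNOD mice aged 5 weeks, and every mouse, knockout or not, carried the AireGFP transgene, a green fluorescent reporter of Aire. Cells that were CD45-, Ly51- and MHCII+ were divided into a bright (GFPhi) and a dim (GFPlo) reporter gate. The 4 groups were 48 cells of Aire knockout mice in the bright gate (KO GFPhi), 61 of Aire wild-type mice in the bright gate (WT GFPhi), 52 knockout cells in the dim gate (KO GFPlo) and 39 wild-type cells in the dim gate (WT GFPlo). Neither the nature of the Aire lesion nor the number of mice is given, and no animal is named, so each group is 1 sample, nothing below is a test, and differences between groups cannot be told apart from differences between animals.

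The thymus has an outer cortex, where immature T cells are committed and positively selected, and an inner medulla, where self-reactive T cells are removed. Foxn1 is the transcription factor without which neither epithelium forms a working thymus, and it is known to act on genes such as Dll4, Psmb11, Prss16 and Ccl25. Cortical epithelium instructs incoming progenitors through the Notch ligand Dll4 and displays peptides cut by a proteasome that contains the Psmb11 product and by the protease encoded by Prss16. Medullary epithelium is known instead for Aire, which lets it transcribe genes of other tissues.

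Counts per cell ran from 2429 to 370365, with a median of 29106.5, and group sums were 3011900 in KO GFPhi, 3468109 in WT GFPhi, 1847240 in KO GFPlo and 2260672 in WT GFPlo cells. Levels below are counts per 1000000 counts of a group's sum (CPM), and every interval is at 95% and holds counting error alone for levels and ratios, and the sampling of cells, taken as independent, for shares of cells. Of the genes listed as medullary, H2-Aa, an MHC class II chain and so tied to the MHCII+ gate, had counts in all 200 cells. Fezf2 had counts in 169, Epcam, an epithelial adhesion protein, in 162, and Aire in 161. Others were rarer, with Krt5 in 92, Ccl21a in 87, Cd80 in 45 and Cldn4 in 42 cells. These numbers do not by themselves check the medullary label. The targeted Aire transcript was at 815 CPM in KO GFPhi, 537 CPM in WT GFPhi, 316 CPM in KO GFPlo and 244 CPM in WT GFPlo cells, and with the lesion not given it checks no genotype label. However, 48 wells held more counts of 24 leukocyte genes than of 11 epithelial genes (leukocyte-marked wells), 4 in KO GFPhi, 19 in WT GFPhi, 18 in KO GFPlo and 7 in WT GFPlo. Among the 24 genes Igj had most counts, 28081, while Cd52 had counts in 190 and Laptm5 in 165 of the 200 cells. Of the 48 leukocyte-marked wells 35 held Aire, as did 17 of the 19 in WT GFPhi. The mark thus does not show that a well lacked an epithelial cell. Cells were sorted on 2 dates, 128 on the second and 72 on the first, and sequenced in 12 pools. Each of the 30 capture primers was used in 1 group alone, and a primer was reused from pool to pool. A difference between groups thus cannot be told apart from a difference between their primers.

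Tbata was found in nearly every cell and the other genes in a minority. Counts of Tbata were present in 191 of 200 cells (95.5%, 91.6–97.9%). Foxn1 was present in 96 cells (48%), Ly75 in 58 (29%), Prss16 in 56 (28%), Psmb11 in 24 (12%) and Dll4 in 16 (8%). Of the 200 cells 5 held none of the 6 genes, 53 held 1, 69 held 2, 48 held 3, 20 held 4, 4 held 5, and 1 KO GFPhi cell held all 6. The counts were unevenly spread. The 5 richest cells held 28.1% of all Tbata counts, 39.3% of Foxn1, 46.7% of Ly75, 51.4% of Prss16, 74.6% of Dll4 and 91.7% of Psmb11.

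**Figure D1:**
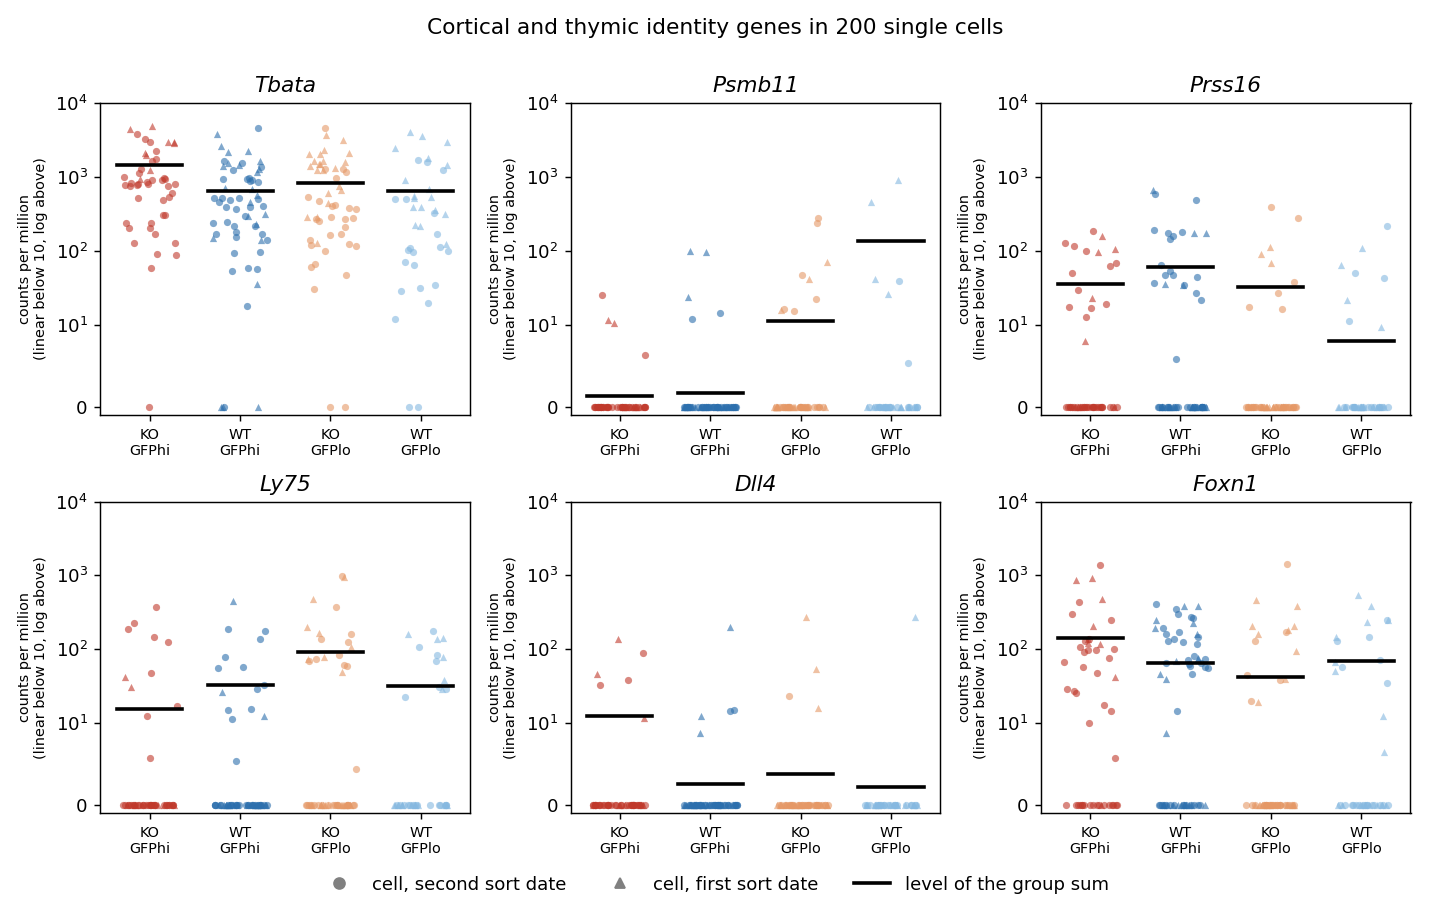
CPM of each of the 6 genes (vertical axis, linear below 10 and logarithmic above) in each of the 200 cells, by group (horizontal axis). Circles are cells of the second and triangles cells of the first sort date, and black lines are the level of the group's summed counts. Tbata leaves 9 cells at 0, whereas a single WT GFPlo cell at 917 CPM sets the Psmb11 level of its group.

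Tbata was at 330 CPM (310–351) in the leukocyte-marked and 1132 CPM (1108–1156) in the other wells, with counts in 87.5% and 98% of them, and Foxn1 was at 40.4 and 102 CPM, with counts in 35.4% and 52% of them. The leukocyte-marked wells still held 1 to 812 epithelial counts each, with a median of 32. Among all genes, 34.1% were at least 2-fold lower in the leukocyte-marked wells, a set that included 4 of the 6 genes. The others were Ly75, at 46.6 CPM in leukocyte-marked and 34.6 CPM in other wells, and Prss16, at 25.8 and 42 CPM. Psmb11 was detected in 18.8% of leukocyte-marked and 9.87% of other wells and Ly75 in 33.3% and 27.6%, so a count of these genes in a well does not by itself place them in the epithelial cell. Median depth was 40274 counts in leukocyte-marked and 28569.5 in other wells.

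Tbata, named for thymus, brain and testis and reported in mice to restrain the growth of thymic epithelial cells, had its highest level in KO GFPhi cells. It lies on chromosome 10 (61171954–61188841, plus strand, mm10). Per cell, Tbata ran from 0 over a median of 818 to 4945 CPM in KO GFPhi cells, against 0 over 452 to 4584 CPM in WT GFPhi cells. In the dim gate it ran from 0 over a median of 429 to 4674 CPM in KO GFPlo cells, against 0 over 327 to 4033 CPM in WT GFPlo cells. The groups overlapped over almost their whole range.

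As a sum, Tbata was at 1442 CPM (1399–1485) in KO GFPhi, 637 CPM (610–664) in WT GFPhi, 822 CPM (782–865) in KO GFPlo and 643 CPM (610–677) in WT GFPlo cells. The intervals of both wild-type groups overlap and the others do not. KO GFPhi cells thus had 2.26 times the WT GFPhi level (2.15–2.38), and the ratio was 2.16 on the second and 2.62 on the first date, when 24.3% and 25% of all genes were at least 2-fold higher. The knockout level was higher in 9 of the 12 pools and lower in 3. One KO GFPhi cell of the first date gave 1235 of the 4343 Tbata counts of its group (28.4%), and the log2 ratio of 1.18 was 0.82 without it and 0.77 without pool 6, to which it belongs. Without leukocyte-marked wells the Tbata log2 ratio was 0.74, at 1481 CPM in KO GFPhi and 889 CPM in WT GFPhi cells, as the mean of per-cell levels it was 0.70, and with umi primers alone 2.45. In the dim gate KO had 1.28 times the WT level (1.19–1.37), higher in 7 of 11 pools.

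Between gates, KO GFPhi had 1.75 times the Tbata level of KO GFPlo cells (1.65–1.86), higher in 10 of 12 pools, and without leukocyte-marked wells the log2 ratio was 0.28 instead of 0.81. WT GFPhi had 0.990 times the level of WT GFPlo cells (0.926–1.06) in the sum, although the level was higher in WT GFPhi in 9 of 11 pools. The sum of WT GFPlo holds 1 cell with 453 of its 1454 Tbata counts, and without it the log2 ratio was 0.31 instead of -0.01.

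Tbata also differed between the sort dates, in the same direction in each group. On the second date the level was 958 CPM, against 2669 CPM on the first, in KO GFPhi cells, and 443 CPM against 1019 CPM in WT GFPhi cells. It was 358 CPM on the second and 1624 CPM on the first date in KO GFPlo cells, and 264 CPM and 1051 CPM in WT GFPlo cells. The ratio of the second to the first date was 0.359 in KO GFPhi, 0.434 in WT GFPhi, 0.220 in KO GFPlo and 0.251 in WT GFPlo cells, at least 2-fold lower in all 4 groups. In the bright gate that fold rests on single cells. Of the 2275 first-date Tbata counts of KO GFPhi 1235 (54.3%) lay in 1 of 9 cells, without which the ratio was 0.555 (0.515–0.598), and in WT GFPhi it was 0.527 (0.482–0.577) without the richest cell and 1.17 with umi primers alone, from 14 first-date counts. Leaving out pool 6 gave 0.577 in KO GFPhi cells, and leaving out pool 4 or 12 gave 0.558 or 0.503 in WT GFPhi cells. In the dim gate the ratios without the richest cell were 0.269 in KO GFPlo and 0.299 in WT GFPlo cells. Of all genes with 10 counts in the comparison, 20.5%, 26.3%, 27.3% and 32.1% were at least 2-fold lower on the second date in the same order of groups, and the median log2 ratio of all genes was 0.50, 0.14, 0.12 and -0.02.

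Foxn1 followed the date in the same direction, at 57 CPM on the second and 360 CPM on the first date in KO GFPhi, 52.1 and 90.9 CPM in WT GFPhi, 28.2 and 64.9 CPM in KO GFPlo and 42.6 and 96.5 CPM in WT GFPlo cells. Dll4, with 25 counts on the second and 34 on the first date, had at least 10 counts in KO GFPhi cells alone, at 9.72 against 19.9 CPM. On the second against the first date it had 3 against 6 counts in WT GFPhi and 1 against 6 in KO GFPlo cells. In WT GFPlo cells it had 0 against 5, the 5 in 1 cell, and these are too few to read. Psmb11, Prss16 and Ly75 had no common direction. In the bright gate Aire was at 795 CPM on the second and 866 CPM on the first date in KO GFPhi cells and at 489 and 631 CPM in WT GFPhi cells. In the dim gate it was at 138 and 622 CPM in KO GFPlo cells and at 38.4 and 465 CPM in WT GFPlo cells. Recorded median GFP intensity was 2515 on the second and 8337 on the first date in KO GFPlo, and 2290 and 5960 in WT GFPlo cells. Ly51 intensity had medians of 1672 and -12 in KO GFPhi cells, and whether gates or instrument settings differed between dates is not given in the sources used here. Of the KO GFPlo cells, 15 of 30 were leukocyte-marked on the second and 3 of 22 on the first date. In KO GFPhi cells these were 4 of 39 and 0 of 9. Leaving out leukocyte-marked wells was among 5 alternative settings of the Tbata date ratio. Over these settings the log2 ratio ran from -1.63 to -0.85 in KO GFPhi and from -1.51 to 0.19 in WT GFPhi cells. It ran from -2.65 to -1.04 in KO GFPlo and from -3.65 to -1.26 in WT GFPlo cells. The part of intensities and leukocyte-marked wells in the date difference was not tested.

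**Figure D2:**
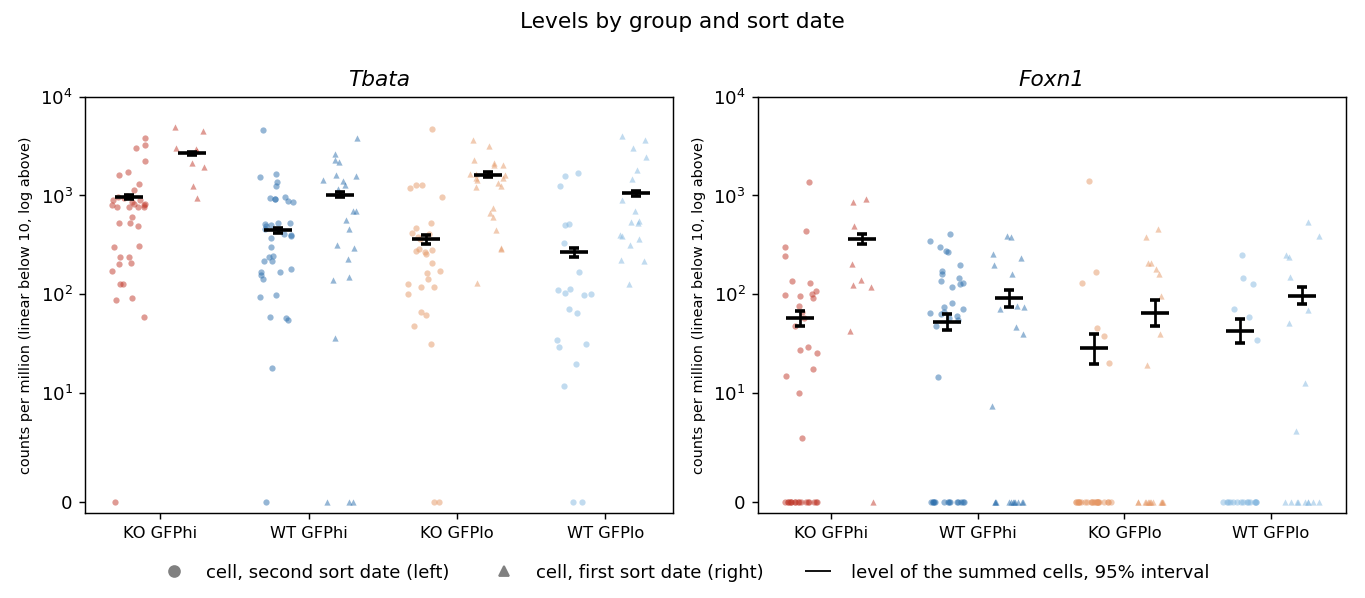
CPM of Tbata (left) and Foxn1 (right) in each cell, by group, with cells of the second sort date left of those of the first. Black bars are the level of the summed cells with its 95% counting interval, and the axis is linear below 10 and logarithmic above. Tbata is lower on the second date in each group, for example at 264 against 1051 CPM in WT GFPlo cells.

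Foxn1 lies on chromosome 11 (78357577–78386558, minus strand, mm10). Foxn1 counts came to 143 CPM (130–157) in KO GFPhi, 65.2 CPM (56.9–74.2) in WT GFPhi, 41.7 CPM (32.9–52.1) in KO GFPlo and 68.6 CPM (58.2–80.2) in WT GFPlo cells. Counts were present in 30 of 48 KO GFPhi, 36 of 61 WT GFPhi, 15 of 52 KO GFPlo and 15 of 39 WT GFPlo cells. Per cell the median was 28 and the maximum 1371 CPM in KO GFPhi, against 55 and 405 CPM in WT GFPhi, so that the median and the sum differ in order. In the dim gate both medians were 0, with maxima of 1417 CPM in KO GFPlo and 544 CPM in WT GFPlo cells.

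The KO GFPhi level of Foxn1 was 2.19 times that of WT GFPhi cells (1.86–2.59) and 3.42 times that of KO GFPlo cells (2.68–4.42). The first of these ratios was 1.09 on the second and 3.96 on the first date, and it rests on pool 6, without which the log2 value was 0.40 instead of 1.13. The same KO GFPhi cell that led Tbata held 121 of the 430 Foxn1 counts of its group. The second ratio kept its direction in 11 of 11 alternative settings (log2 0.95 to 2.46, against 1.77 over all cells), and was 1.13 without pool 6. In KO GFPlo cells Foxn1 was at 0.608 times the WT GFPlo level (0.456–0.804), and none of its 77 counts lay in the 18 leukocyte-marked wells of that group, without which the log2 ratio was -0.23 instead of -0.71.

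Genes that pattern the thymus alongside Foxn1 were measured as a list of 9, of which 8 had 10 counts between KO GFPhi and WT GFPhi cells. In that comparison 3 were at least 2-fold higher in KO, against 20% of all genes. They were Isl1, a homeobox factor (39.8 CPM in KO GFPhi and 4.61 CPM in WT GFPhi), Trp63, which maintains stratified epithelia (78.0 and 26.2 CPM), and Hoxa3, which acts early in thymus formation (5.98 and 0.865 CPM), with 81% of the Hoxa3 counts of both groups in 1 cell. Of 7 in the dim gate 1 was at least 2-fold higher and 2 lower, against 23.6% and 27.3% of all genes, Isl1 being at 1.62 CPM in KO GFPlo against 39.4 CPM in WT GFPlo cells, where 1 cell held 55.4% of the counts of both groups.

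Dll4, the Notch ligand through which cortical epithelium commits progenitors to the T lineage, had 59 counts in 16 cells. It lies on chromosome 2 (119325784–119335962, plus strand, mm10). It was at 12.6 CPM (8.93–17.3) in KO GFPhi, 2.60 CPM (1.19–4.93) in WT GFPhi, 3.79 CPM (1.52–7.81) in KO GFPlo and 2.21 CPM (0.718–5.16) in WT GFPlo cells, and the last 3 intervals overlap. Per cell the median was 0 in each group, and the maxima were 136 CPM in KO GFPhi, 202 CPM in WT GFPhi, 274 CPM in KO GFPlo and 275 CPM in WT GFPlo cells. The KO GFPhi level was 4.86 times that of WT GFPhi cells (2.31–11.4), from 38 against 9 counts. Of the 38 counts, 18 and 13 lay in 2 cells, the knockout level was higher in 4 pools, lower in 2 and 0 or equal in 6, and the mean of per-cell levels gave a log2 ratio of 0.84 instead of 2.22. Leaving out pool 2 gave 1.64 and leaving out pool 6 gave 3.30. Against KO GFPlo cells the KO GFPhi level was 3.33 times as high (1.47–8.83), a log2 value of 1.65 that was 0.71 without pool 11 and 2.83 without pool 6. The Dll4 gene overlaps Gm14207 on the other strand, which had 113 counts, and whether counting used strand is not given in the sources used here.

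Of 7 other Notch genes with 10 counts, 3 were at least 2-fold higher and 1 lower in KO GFPhi than in WT GFPhi cells, against 20% and 29.1% of all genes. Of 8 in the dim gate 1 was at least 2-fold higher and 4 lower in KO, against 23.6% and 27.3%. Jag1, the ligand with most counts, was at 181 CPM in KO GFPhi and 34.3 CPM in WT GFPhi cells, and at 115 CPM in KO GFPlo and 98.6 CPM in WT GFPlo cells. Hes1, a Notch target, was at 12.6 CPM in KO GFPhi against 1.44 CPM in WT GFPhi, and at 39 CPM in KO GFPlo against 85.4 CPM in WT GFPlo cells, with 36.2% of the dim-gate counts in 1 cell.

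Psmb11, the cortical subunit of the thymoproteasome, was in effect a measurement of 1 cell. The gene lies on chromosome 14 (54621433–54629556, plus strand, mm10) and had 337 counts in 24 cells, of which 282 (83.7%) lay in 1 WT GFPlo cell of the first date, at 917 CPM (814–1031). Group levels were 1.33 CPM (0.362–3.40) in KO GFPhi, 1.73 CPM (0.635–3.77) in WT GFPhi, 11.4 CPM (7.04–17.4) in KO GFPlo and 135 CPM (121–151) in WT GFPlo cells, and those of both bright-gate groups overlap. The other 38 WT GFPlo cells together were at 12.3 CPM. Accordingly the ratio of KO GFPlo to WT GFPlo of 0.0840 (0.0512–0.131) had a log2 value of -3.54, which was -0.05 without pool 4, and the ratio of WT GFPhi to WT GFPlo of 0.0128 had -6.18, which was -3.19 without that pool. On the second date alone KO GFPlo had 3.41 times the WT GFPlo level (1.21–11.8), from 17 against 5 counts, but the 17 lay in 6 wells of 2 primers and 5 of those wells were leukocyte-marked.

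Of 12 further cortical genes, 4 were at least 2-fold higher in that cell than in the other WT GFPlo cells summed, 2 were lower, 3 lay within 2-fold and 3 had under 10 counts. It held 2389 counts of Ccl25, a chemokine that draws in T cell progenitors, which made 7772 CPM against 290 CPM in the other WT GFPlo cells, and 80.9% of the counts of its group. It held 188 counts of Il7, the cytokine that early T cells need to survive, at 612 CPM against 20.5 CPM, the highest level of all 200 cells. It held 42 counts of Kitl, a growth factor of early progenitors, at 137 CPM against 6.66 CPM. The last of the 4 was the keratin Krt18, at 1181 CPM against 395 CPM. Ctsl was at 465 CPM against 539 CPM and Cxcl12 at 48.8 CPM against 42 CPM. Beside these, Tbata was at 1474 CPM (1341–1616) against 512 CPM, Aire at 156 CPM (115–207) against 258 CPM, and the MHC class II chain H2-Aa at 5342 CPM against 3285 CPM. Other medullary genes went both ways. Krt5 was at 22.8 CPM against 609 CPM, Krt14 at 143 CPM against 409 CPM and Ccl21a at 0 against 208 CPM. Fezf2 was at 491 CPM against 333 CPM and Epcam at 478 CPM against 589 CPM.

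The cell held 0 counts of the cortical genes Cd83 and Pltp, against 82.9 and 144 CPM in the other WT GFPlo cells, and 0 of 307380 counts allows up to 9.76 CPM. Prss16, Ly75, Dll4 and Enpep were at 0 too, but for Prss16, Dll4 and Enpep the other cells do not clearly exceed that limit. Foxn1 had 2 counts. Leukocyte Ptprc was at 0 as well, and the well was not leukocyte-marked. Enpep encodes Ly51, the antigen used to gate cortical cells out, and Ly51 staining of this cell was -10, against a median of -7 and a range of -64 to 106 among the 72 cells of the date. Its total was the second highest of all cells, and no doublet caller was run. The same cell is the single WT GFPlo cell mentioned above for Tbata (453 counts), Isl1 (51 counts) and Hes1 (96 counts). The genes named for this cell, beyond the 6, were chosen after their values were seen.

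**Figure D3:**
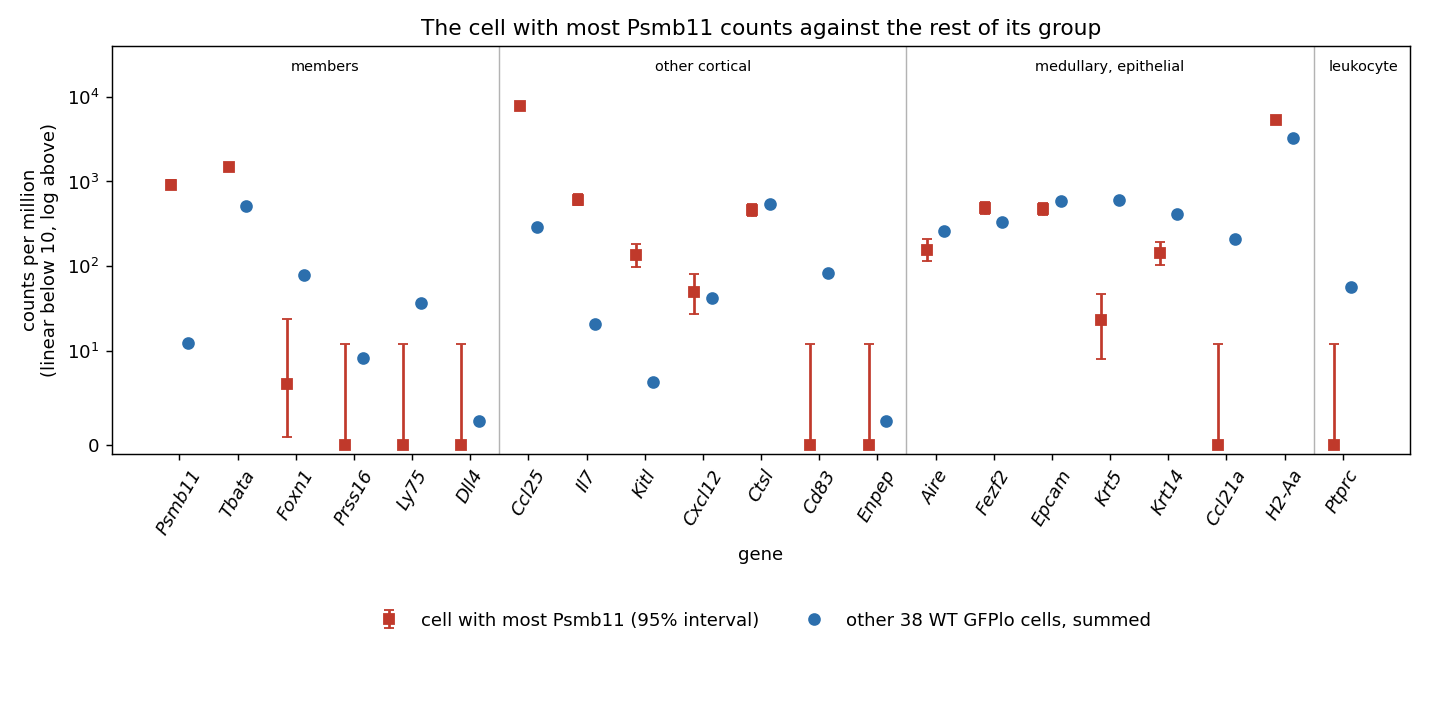
CPM (vertical axis, linear below 10 and logarithmic above) in the WT GFPlo cell with most Psmb11 counts (squares, with 95% counting intervals) and in the other 38 WT GFPlo cells summed (circles), for members, other cortical, medullary or epithelial and leukocyte genes. Ccl25 is at 7772 against 290 and Il7 at 612 against 20.5, while Cd83 is at 0 in the cell.

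Of the 55 Psmb11 counts outside that cell, many sat in cells that shared its primer. On the first date the 3 other cells with the same primer, in other pools, held 12, 6 and 1 of the 29 remaining counts, with 206449 counts of all genes between them, against 2515339 in the 56 cells that shared neither its primer nor its pool and held 7. Other genes had the same pattern. Among 23 genes with at least 200 counts in 1 cell and at least 90% of the first date's counts there, cells with the same primer held 62.0% of the remaining counts with 5.07% of the depth, and cells of the same pool 15.2% with 22.3% of the depth. The same-primer counts came to 4.80% of those in the leading cells. On the second date the share was 56.6% against 3.74% of the depth, over 5 genes. Cells that share a primer also share a group, and over these genes cells of the same group with other primers were not counted apart. For Psmb11, the 301 counts of first-date WT GFPlo cells lay in 4 of 18 cells, and all 4 had the leading primer. Whether low counts of Psmb11 in wells that share a primer with a rich cell are expression was not tested, and they are not read as such. Without all cells of the leading primer and date the log2 ratio of KO GFPlo to WT GFPlo was 1.89.

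The DNA before the starts of Psmb11 and Ccl25, which were among the genes that stood out in 1 cell, and of Tbata, the gene found in nearly all cells, is shown for comparison. Windows of 300 bases, from 250 before to 50 after the start, are from RefSeq (build GRCm38.p6), whose Psmb11 start lies within the span given above, printed along the gene's strand, and capitals mark GACGC or its reverse complement GCGTC, the core letters known for the Foxn1 protein. Psmb11 at chr14:54625060-54625359 (plus strand), Ccl25 at chr8:4324960-4325259 (plus strand, the first of 2 listed starts) and Tbata at chr10:61171714-61172013 (plus strand) read as follows.
Psmb11: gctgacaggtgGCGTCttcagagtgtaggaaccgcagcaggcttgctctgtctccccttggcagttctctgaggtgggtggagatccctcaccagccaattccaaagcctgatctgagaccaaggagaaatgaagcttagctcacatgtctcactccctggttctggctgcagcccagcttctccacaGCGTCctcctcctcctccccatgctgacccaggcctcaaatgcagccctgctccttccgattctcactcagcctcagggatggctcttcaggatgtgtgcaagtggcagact
Ccl25: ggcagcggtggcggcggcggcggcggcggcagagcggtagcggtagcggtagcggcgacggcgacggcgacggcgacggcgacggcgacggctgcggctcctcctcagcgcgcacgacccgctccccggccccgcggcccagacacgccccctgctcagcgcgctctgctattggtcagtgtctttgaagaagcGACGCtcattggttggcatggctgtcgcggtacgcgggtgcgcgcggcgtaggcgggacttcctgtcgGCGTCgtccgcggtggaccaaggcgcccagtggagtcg
Tbata: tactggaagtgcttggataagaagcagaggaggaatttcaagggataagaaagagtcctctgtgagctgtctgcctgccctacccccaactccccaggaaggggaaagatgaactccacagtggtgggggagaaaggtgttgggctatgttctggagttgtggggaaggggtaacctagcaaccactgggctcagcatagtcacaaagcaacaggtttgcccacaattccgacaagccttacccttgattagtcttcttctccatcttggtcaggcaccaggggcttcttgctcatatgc

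Psmb11 had 2 matches, whose first bases lay at -239 and -62 from the start, and the first Ccl25 window 2, at -56 and 13, while the window of its second listed start, not shown, had 0. Kitl had 1. No match was found in the windows of Tbata, Ly75, Dll4 and Foxn1. Of 32851 windows 27.2% held at least 1 match and 8.15% at least 2. These shares are not matched for G and C, which made up 57.3% of the Psmb11, 74% of the first Ccl25 and 51.7% of the Tbata window. A match in the letters is a description and not a binding site.

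The 6 other catalytic subunits of the proteasome, constitutive and immune, were measured as a list. In KO GFPhi against WT GFPhi cells 0 were at least 2-fold higher and 1 lower, against 20% and 29.1% of all genes. This was Psmb5, the subunit that constitutive proteasomes hold in place of Psmb11, at 198 CPM in KO GFPhi and 399 CPM in WT GFPhi cells (ratio 0.497, 0.451–0.547), a ratio that was 0.611 without the richest well, which was leukocyte-marked. Psmb8, the immunoproteasome counterpart, was at 105 and 191 CPM. In the dim gate 1 was at least 2-fold higher, Psmb9, at 175 CPM in KO GFPlo and 46.4 CPM in WT GFPlo cells, and 0 were lower, against 23.6% and 27.3% of all genes.

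Prss16, a serine protease of the cortex thought to trim peptides for MHC class II, had a higher summed level in the bright than in the dim gate of wild-type cells. It lies on chromosome 13 (22002173–22009742, minus strand, mm10). It was at 35.2 CPM (28.8–42.6) in KO GFPhi, 61.1 CPM (53.2–69.9) in WT GFPhi, 31.9 CPM (24.3–41.2) in KO GFPlo and 7.96 CPM (4.72–12.6) in WT GFPlo cells. Counts were present in 17 of 48 KO GFPhi, 22 of 61 WT GFPhi, 9 of 52 KO GFPlo and 8 of 39 WT GFPlo cells. Per cell the median was 0 in each group, with maxima of 188 CPM in KO GFPhi, 674 CPM in WT GFPhi, 387 CPM in KO GFPlo and 217 CPM in WT GFPlo cells.

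WT GFPhi cells had 7.68 times the Prss16 level of WT GFPlo cells (4.74–13.2), with 212 against 18 counts. The ratio was 8.38 on the second and 6.63 on the first date and the level was higher in WT GFPhi in 7 of 11 pools and lower in 3. Its log2 value of 2.90 lay between 2.05 and 4.6 in 11 alternative settings and between 2.52 and 3.07 when single pools were left out. In the same comparison 27.6% of all genes were at least 2-fold higher. After thinning to 10000 counts, 12 of 55 WT GFPhi cells held Prss16, against 4 of 32 WT GFPlo cells, and the intervals on these shares overlap. In knockout cells the gates were at 1.10 times (0.794–1.54), but 43 of the 59 counts of KO GFPlo lay in 1 cell of the second date, without which the log2 ratio was 1.90 instead of 0.13. The ratio of KO GFPhi to KO GFPlo was 0.521 on the second and 7.29 on the first date. The same cell set the 4.01-fold level (2.33–7.23) of KO GFPlo against WT GFPlo, whose log2 value was 0.22 without it instead of 1.98. Leaving out pool 11 gave 0.43. In the bright gate KO was at 0.576 times the WT level (0.452–0.730), with 0.367 on the second and 1.18 on the first date, and the log2 value of -0.79 was -0.14 without pool 11.

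Among 7 endolysosomal proteases, which cut antigens for MHC class II, 1 was at least 2-fold higher and 2 lower in KO GFPhi than in WT GFPhi cells, and 0 higher and 3 lower in KO GFPlo than in WT GFPlo cells, where 20% and 29.1%, and 23.6% and 27.3%, of all genes were called. Ctss, the cathepsin with most counts, was at 720 CPM in KO GFPhi, 440 CPM in WT GFPhi, 945 CPM in KO GFPlo and 487 CPM in WT GFPlo cells. Ctsl, its cortical counterpart, was at 109, 73.5, 193 and 529 CPM in the same order of groups.

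Ly75, the endocytic receptor DEC-205 of cortical epithelium and dendritic cells, had its highest level in KO GFPlo cells. It lies on chromosome 2 (60292103–60383303, minus strand, mm10) and overlaps Gm13571, an antisense gene with 12 counts. It was at 15.6 CPM (11.5–20.8) in KO GFPhi, 33.2 CPM (27.4–39.8) in WT GFPhi, 92.0 CPM (78.7–107) in KO GFPlo and 31.4 CPM (24.5–39.6) in WT GFPlo cells, and the intervals of the wild-type groups overlap. Counts were present in 11 of 48 KO GFPhi, 15 of 61 WT GFPhi, 19 of 52 KO GFPlo and 13 of 39 WT GFPlo cells. Medians per cell were 0, and the maxima were 379 CPM in KO GFPhi, 449 CPM in WT GFPhi, 989 CPM in KO GFPlo and 178 CPM in WT GFPlo cells.

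The KO GFPlo level of Ly75 was 2.93 times that of WT GFPlo cells (2.21–3.92), with 2.87 on the second and 3.32 on the first date and a higher knockout level in 7 of 11 pools. KO GFPhi cells had 0.170 times the level of KO GFPlo cells (0.120–0.235). Both directions held in 11 of 11 alternative settings, with log2 values of 0.97 to 6.26 for the genotype and -4.08 to -1.68 for the gate, and when single pools were left out, at 1.36 to 1.67 and -2.97 to -2.20. The 6.26 came with umi primers alone, where no WT GFPlo cell held Ly75, so the added 0.5 count sets its size. In the bright gate KO was at 0.471 times the WT level (0.328–0.666), but 1 leukocyte-marked cell gave 51 of the 115 WT counts, and the log2 ratio of -1.08 was -0.06 without leukocyte-marked wells, -0.20 without pool 6 and 0.27 as the mean of per-cell levels.

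Dendritic cell genes differed in the same direction as Ly75 in the dim gate. Of 7 with 10 counts, 6 were at least 2-fold higher in KO GFPlo than in WT GFPlo cells and 0 lower, against 23.6% and 27.3% of all genes, and the sum of the list was 718 CPM in KO GFPlo and 191 CPM in WT GFPlo cells. Ccr7, which guides dendritic cells into lymphoid tissue, was at 344 and 82.7 CPM, and Irf8 was at 0 in every cell. Without leukocyte-marked wells Ly75 was at 134 CPM in KO GFPlo and 41.8 CPM in WT GFPlo cells, with a log2 ratio of 1.67 instead of 1.55. The part of dendritic cell transcripts in the level of Ly75 was not tested.

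Past 2-fold in either direction were 4 of the 6 genes in KO GFPhi against WT GFPhi cells (49.2% of all genes), 3 in KO GFPlo against WT GFPlo (50.9%), 4 in KO GFPhi against KO GFPlo (50.4%) and 2 in WT GFPhi against WT GFPlo cells (51.8%). In KO GFPhi against WT GFPhi cells 3 of the 6 were at least 2-fold higher (Tbata, Dll4 and Foxn1) and 1 lower (Ly75), where 20% of 15033 genes were higher and 29.1% lower. In KO GFPlo against WT GFPlo cells 2 were higher (Prss16 and Ly75) and 1 lower (Psmb11), with 23.6% and 27.3% of all genes. Between gates, 2 were higher (Dll4 and Foxn1) and 2 lower (Psmb11 and Ly75) in KO GFPhi than in KO GFPlo cells, with 24.3% and 26.1% of all genes, and 1 was higher (Prss16) and 1 lower (Psmb11) in WT GFPhi than in WT GFPlo cells, with 27.6% and 24.2%. The median log2 ratio of the 6 was 0.40, 0.55, 0.47 and 0.03 in the same order, against -0.13, -0.05, -0.03 and 0.05 over all genes. The 4 comparisons share groups and are not independent of each other.

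**Figure D4:**
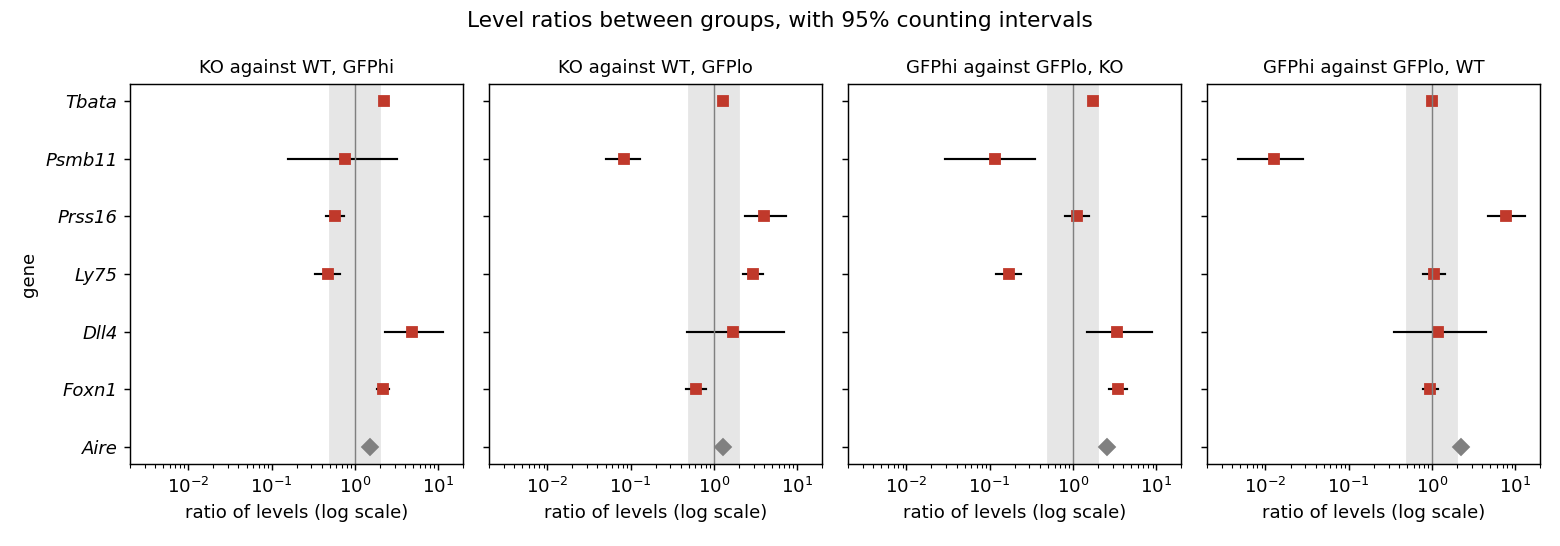
Ratio of levels (horizontal axis, logarithmic) of the 6 genes and Aire in 4 comparisons, KO over WT in each gate and GFPhi over GFPlo in each genotype. Squares and diamonds are ratios of group sums, bars are 95% counting intervals, and the grey band spans less than 2-fold either way. Prss16 lies at 7.68 between the wild-type gates and at 1.10 between the knockout gates, and Psmb11 lies at 0.0840 and 0.0128 in the comparisons that have WT GFPlo as the denominator.

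Co-detection with Aire was read after each cell was thinned to 10000 counts, which 179 cells reached. The Aire gene overlaps Dnmt3l on the other strand, which had 5225 counts, so reads of the overlap cannot be told apart without knowing strand use. The 21 cells left out were 4 in KO GFPhi, 6 in WT GFPhi, 4 in KO GFPlo and 7 in WT GFPlo. Aire was detected in 133 of the thinned cells, and both sets had like depth before thinning, with medians of 35020 and 36362 counts. Foxn1 was detected in 56 of 133 Aire-detected cells (42.1%, 33.6–51%) and in 9 of 46 Aire-undetected cells (19.6%, 9.36–33.9%). Tbata was detected in 121 of 133 (91.0%, 84.8–95.3%) and in 32 of 46 (69.6%, 54.3–82.3%). With groups and dates pooled, the intervals do not overlap for Tbata and overlap at their edge for Foxn1.

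The other genes differed less or on too few cells. Prss16 was detected in 18.8% of Aire-detected and 10.9% of Aire-undetected cells, Ly75 in 15.8% and 19.6%, Dll4 in 7 and 1 cells, and Psmb11 in 2 and 5 cells, all with overlapping intervals. Over all 7319 genes with a count in at least 20 thinned cells, 54.9% were detected more often with Aire and 9.14% at least 2-fold more often. Of the 4 members with that many cells, 3 were detected more often and 1, Foxn1, at least 2-fold more often. Tbata could not have reached 2-fold, being in 69.6% of Aire-undetected cells already. Without thinning, Foxn1 was in 55.3% of 161 Aire-positive and 17.9% of 39 Aire-negative cells, and Tbata in 96.9% and 89.7%.

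Gate and Aire detection went together, since 10 of 99 GFPhi and 36 of 80 GFPlo cells had no Aire count. Within GFPlo cells Foxn1 was detected in 36.4% of 44 Aire-detected and 13.9% of 36 Aire-undetected cells, and Tbata in 95.5% and 66.7%. Within GFPhi cells Foxn1 was detected in 44.9% of 89 and in 4 of 10, and Tbata in 88.8% and in 8 of 10. By date, Tbata was detected in 87.5% of Aire-detected and 65.8% of Aire-undetected cells on the second date, and in 96.2% of 53 and in 7 of 8 on the first. Without leukocyte-marked wells the shares were 93.5% and 77.4% for Tbata and 42.1% and 22.6% for Foxn1, where 26 of the 133 and 15 of the 46 cells were leukocyte-marked. The Tbata intervals overlap within GFPhi cells, on each date alone and without leukocyte-marked wells, and stay apart within GFPlo cells. Gate and date were not held fixed together.

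**Figure D5:**
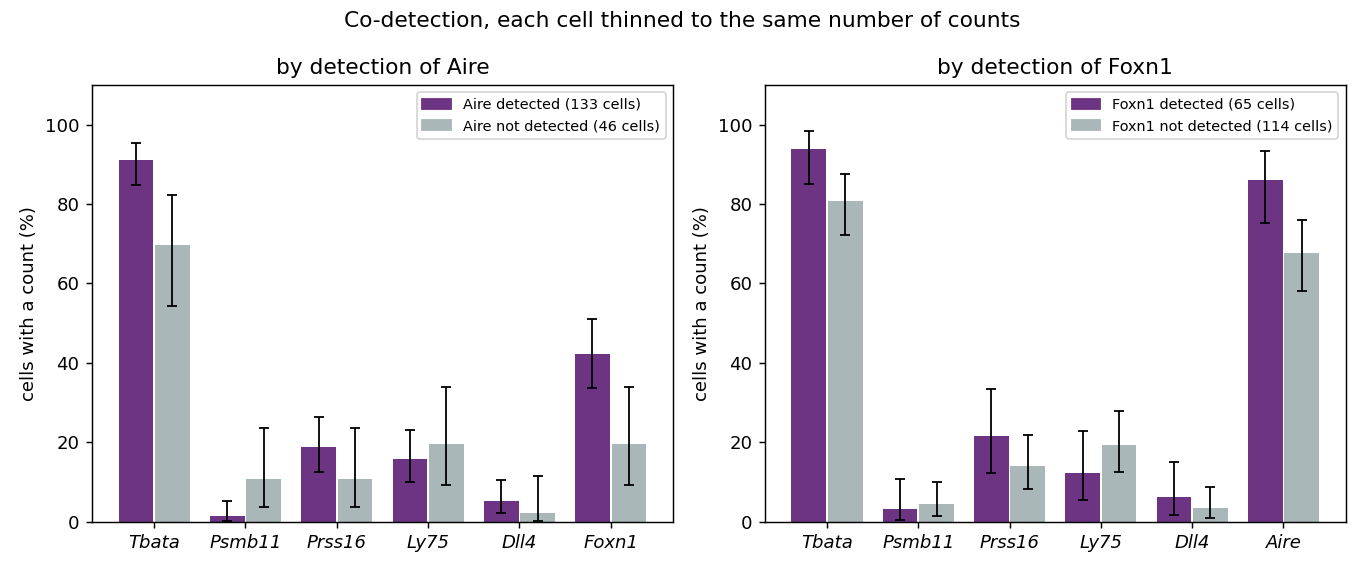
Percent of thinned cells with a count (vertical axis) of each gene, among cells with and without Aire (left) and with and without Foxn1 (right). Bars are shares and lines their exact binomial 95% intervals. Tbata and Foxn1 show the widest gaps by Aire, 91.0 against 69.6% and 42.1 against 19.6%.

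Cells with Foxn1 were compared in the same way for the other genes. Among thinned cells, Prss16 was detected in 21.5% of 65 Foxn1-detected and 14% of 114 Foxn1-undetected cells, Ly75 in 12.3% and 19.3%, and Tbata in 93.8% and 80.7%. Of all genes 58.1% were detected more often with Foxn1 and 2.9% at least 2-fold more often, and no member reached 2-fold. Tbata could not have reached it, being in 80.7% of Foxn1-undetected cells already. In the unthinned counts Dll4 shared a cell with Foxn1 in 13 of its 16 cells and Prss16 in 38 of its 56 cells, where Foxn1-detected cells were the deeper ones, at a median of 44052 against 30718 counts among the thinned cells.

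Few genes varied with Tbata from cell to cell. After the mean of each group and date was subtracted from log2(CPM + 50), 35 of 10452 genes (0.335%) had a Pearson r of at least 0.3 with Tbata over 200 cells. The 5 highest were Crip3, also known as thymus LIM protein, with r of 0.47, the pyrophosphate transporter Ank with 0.42, the histamine-forming enzyme Hdc with 0.42, the sphingosine-1-phosphate lyase Sgpl1 with 0.41 and the keratin Krt8 with 0.41. Without leukocyte-marked wells they were 0.43, 0.38, 0.31, 0.33 and 0.27. Sgpl1 lies next to Tbata on chromosome 10 (61098642–61147703, minus strand, mm10), 24250 bases away with 0 annotated genes between, and both genes point away from each other. Aire had r of 0.24 and Foxn1 0.17 with Tbata, and Psmb11, Prss16 and Ly75 lay between -0.08 and -0.05. Cells of 1 pool share a library, and these values are descriptions.

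For the sparser genes the highest r was 0.40 for Foxn1, with the kinase Dapk2, 0.40 for Prss16, with Tmem175, 0.43 for Ly75, with Zfp941, and 0.48 for Psmb11, with Gsta2, which was 0.26 without the richest cell. None of the 5 closest genes of 1 member was another member. Dll4 was in too few cells to be compared.

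Of 10 further genes known from cortical epithelium with 10 counts, 1 was at least 2-fold higher and 2 lower in KO GFPhi than in WT GFPhi cells, against 20% and 29.1% of all genes. Of 11 in the dim gate 3 were higher and 5 lower in KO, against 23.6% and 27.3%. Ccl25 was at 322 CPM in KO GFPhi and 514 CPM in WT GFPhi cells, and at 72.0 CPM in KO GFPlo and 1307 CPM in WT GFPlo cells, of which the other 38 cells account for a level of 290 CPM. Cxcl12, a chemokine of the cortex, was at 0.541 CPM in KO GFPlo and 42.9 CPM in WT GFPlo cells, from 1 against 97 counts in 1 against 11 cells. Enpep had 5 counts in KO GFPhi against 580 in WT GFPhi cells, 333 of them in 1 cell of the first date, and 157 of the 168 remaining counts of that date lay in 2 cells that share its primer.

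Reporter and surface intensities recorded at the sort tracked the genes weakly. Within gate and date, the Spearman rank correlation of Tbata CPM with GFP intensity was between 0.16 and 0.23 in the 4 strata, and that of Foxn1 between 0.02 and 0.15. With Ly51 intensity, Ly75 had values of -0.21 to -0.12, Psmb11 of -0.25 to 0.07 and Dll4 of -0.29 to -0.10, in gates from which Ly51-bright cells had been left out. With MHC class II intensity, Psmb11 had values of -0.38 to 0.24 and Tbata of -0.01 to 0.30. With forward scatter Tbata had -0.16 to 0.28.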

How the data were processed

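RNA of 200 single cells was captured with oligo-dT primers called ls (153 cells) or umi (47 cells), amplified by in vitro transcription and sequenced, per the labels' protocols. The authors deposited raw counts, whole numbers for each gene in each cell. The submitters' processing notes name HTSeq, SAMtools 0.1.19, Picard 1.79, TopHat and TopHat2 with the build mm10; strand settings are not given in the sources used here. In 40 cells the counts exceeded the deposited number of molecular identifiers, so whether identifiers were collapsed is unclear. The authors deposited fluorescence intensity per cell without units. All 200 cells were used, doublets were not removed, 0 columns lacked a sample, and 0 pairs of cells were identical.

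Counts were summed per group and given per 1000000. Levels carry exact Poisson, ratios exact conditional binomial (Clopper-Pearson) and shares exact binomial 95% intervals, where those on counts cover counting error only, since amplified tags are not independent molecules, and those on shares take cells as independent. A gene was read as past 2-fold only with at least 10 counts in the 2 groups, with 0.5 count added to each sum for log2 ratios, and a count of 0 allows up to 3 counts. For co-detection cells were thinned without replacement to 10000 counts (seed 1). Ratio intervals and correlations were tested on simulated data, while thinning and co-detection were not. For the ratios, counts were Poisson draws from group sums, which hold no differences between cells. Gene positions are from GENCODE M21 and promoters from RefSeq, whose table holds 5 of the 6 genes. TMM factors came from edgeR 4.0.16 in R 4.3.3, and matplotlib 3.10.9, scipy 1.17.1, pandas 2.3.3 and numpy 2.4.6 ran under Python 3.11.15.

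Named genes were the 6 members, Aire, from each list at most the 4 with most counts and any that its count called, and for each member found in at least 20 cells the 5 genes of highest correlation where r was at least 0.3. Members and lists were chosen with earlier results of these data known. Alternatives were each date, primer kind or pool, leukocyte-marked wells or the leading cell left out, 10000 counts as a minimum, per-cell means, TMM and Mantel-Haenszel weighting over pools, and other thinning depths of 5000 and 20000. Leaving out all cells of the leading primer and date, and the settings of the date ratios, were added after the data were seen.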

Additional observations from a re-analysis of the deposited data

Results flagged for a closer look

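Of the 6 genes, 3 had knockout-to-wild-type ratios of opposite direction in the 2 gates, and the difference between gates was not tested. Prss16 was at 0.576 times the WT level in KO GFPhi and at 4.01 times the WT level in KO GFPlo cells, and the second value was set by 1 cell. Ly75 was at 0.471 times the WT level in KO GFPhi and at 2.93 times in KO GFPlo cells, and the first was close to 1 without leukocyte-marked wells. Foxn1 was at 2.19 times the WT level in KO GFPhi and at 0.608 times in KO GFPlo cells, with 1.09 and 0.662 on the second date alone.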

How the results depend on the processing

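Values here are log2 level ratios unless said otherwise, and the cause of each shift was not tested. The Tbata ratio of KO GFPhi to WT GFPhi, 1.18 over all cells, was 1.39 on the first date, 1.07 with ls and 2.45 with umi primers, 0.74 without leukocyte-marked wells, 0.82 without the richest cell, 0.80 without the cells of its primer and date and 0.70 as a mean of per-cell levels, and leaving out single pools gave 0.77 to 1.44. That of KO GFPlo to WT GFPlo, 0.35, was 0.63, 0.16, 1.44, 0.68, 0.68 and 0.80 in the first 6 of these settings and 0.60 with Mantel-Haenszel weighting, with 0.018 to 0.54 over pools. That of KO GFPhi to KO GFPlo, 0.81, was 0.72, 0.94, 0.14, 0.28, 0.45, 0.43 and 0.46 in the 7 settings, 1.42 on the second date, 0.93 with TMM and 0.91 with Mantel-Haenszel weighting, with 0.47 to 1.18 over pools. That of WT GFPhi to WT GFPlo, -0.01, was 0.74 on the second date, -0.87 with umi primers, 0.22 without leukocyte-marked wells, 0.31 without the richest cell, 0.43 without the cells of its primer and date and 0.30 with Mantel-Haenszel weighting, with -0.11 to 0.12 over pools. The share of cells with Tbata was 21.4 percentage points higher with Aire than without, and 17.1 at a depth of 5000, 28.2 at 20000, 7.15 without thinning, 8.73 on the first date and 11.1 with umi primers, with 17.2 to 26.2 over pools.

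Among ratios past 2-fold, directions reversed for Psmb11 in KO GFPlo against WT GFPlo (1.67 on the second date and 1.89 without the cells of the leading primer and date), for Ly75 in KO GFPhi against WT GFPhi (0.27 as a mean of per-cell levels), for Foxn1 in the same pair (-0.30 with umi primers) and for Tbata on the second against the first date in WT GFPhi cells (0.19 with umi primers). Apart from Tbata and from single pools left out, a further 24 values of 10 results that were not past 2-fold or were differences of shares changed sign or came to 0, among them Prss16 in KO GFPhi against WT GFPhi (0.24 on the first date), Prss16 in KO GFPhi against KO GFPlo (-0.94 on the second date), Foxn1 in KO GFPlo against WT GFPlo (0.16 as a mean of per-cell levels) and the share of cells with Ly75 by Aire detection, which had the sign given in 3 of 10 settings. When single pools were left out, the sign changed for Prss16 in KO GFPhi against KO GFPlo (-0.46 to 1.96), among others. In WT GFPhi against WT GFPlo it changed for Ly75 (-0.60 to 0.57) and Foxn1 (-0.30 to 0.27). Settings of the date ratios were added after the data were seen. Counting those, 135 other values shifted by more than the error used and 462 did not, and 36 could not be computed for want of counts. For the Tbata group ratios and its share by Aire detection, 53 values shifted by more than that error and 61 did not. No paired analysis was possible because replicate numbers only name cells; pools served as strata in the Mantel-Haenszel weighting instead. Counts were fewest for Dll4, at 59, and then for Psmb11, at 337, of which 282 lay in 1 cell.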
